A study of Mus musculus with 14 samples.

Results

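The 33 genes described here encode the proteins that hold colonic epithelial cells together: claudins and other membrane proteins of the tight junction, its cytoplasmic plaque, cadherins and catenins, desmosomal proteins and polarity proteins. They were chosen by gene symbol from a list of epithelial junction components, and all 33 were found among the 55889 genes counted in mice without dextran sulfate sodium (DSS) and the 54721 genes counted after DSS. By role, the list held 9 claudins (*Cldn1*, *Cldn2*, *Cldn3*, *Cldn4*, *Cldn7*, *Cldn8*, *Cldn12*, *Cldn15* and *Cldn23*), 6 other membrane proteins of the tight junction (*Ocln*, *Marveld2*, *Marveld3*, *F11r*, *Lsr* and *Ildr1*) and 5 plaque proteins (*Tjp1*, *Tjp3*, *Cgn*, *Cgnl1* and *Magi1*). It also held 5 genes of the adherens junction and other epithelial adhesion (*Cdh1*, *Cdh17*, *Ctnna1*, *Ctnnd1* and *Epcam*), 6 desmosomal genes (*Jup*, *Pkp2*, *Pkp3*, *Dsp*, *Dsg2* and *Dsc2*) and 2 polarity genes (*Pard3* and *Crb3*).

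Tight junctions seal the space between neighbouring epithelial cells near the gut lumen. Claudins set which ions pass between the cells: some, such as *Cldn3* and *Cldn4*, tighten the seal, whereas *Cldn2* and *Cldn15* form channels for cations and water. Occludin (*Ocln*) and the ZO proteins (*Tjp1*, *Tjp3*) tie the claudin strands to actin, *Marveld2*, *Lsr* and *Ildr1* close the corners where neighbouring cells meet, and E-cadherin (*Cdh1*) and desmosomes give the sheet its mechanical strength. DSS, a polymer given in the drinking water, injures the colonic epithelium and is widely used to model colitis.

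Colons of wild-type (WT) mice and of *miR-29ab1-/-* mice, which carry a germline deletion of the cluster encoding miR-29a and miR-29b-1, were sequenced in 2 experiments on C57BL/6N mice. In the first, 4 WT and 4 *miR-29ab1-/-* mice received no treatment. In the second, 3 WT and 3 *miR-29ab1-/-* mice were sampled after 3 days of 3.5% DSS in drinking water. The paper states that a WT sample and a *miR-29ab1-/-* sample were left out of its analysis, without saying from which experiment. The study's animals were littermates aged 8 to 12 weeks unless noted otherwise. Every DSS-treated mouse belonged to the second experiment, and the effect of DSS and the difference between the experiments therefore cannot be told apart. The question asked of the junction genes was whether their RNA differed between the genotypes in either state, and how it stood after DSS.

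The deleted cluster encodes miR-29a-3p (chr6:31062673-31062694) and one of the copies of miR-29b-3p (chr6:31063025-31063047), both on the minus strand of GRCm38. MicroRNAs pair with messenger RNAs mainly through their seed, so the mature sequences are shown with the seed, bases 2 to 8, in capitals (RefSeq, GRCm38.p6). miR-29c-3p, encoded with the other copy of miR-29b-3p on chromosome 1, has the same seed and was not deleted.
miR-29a-3p: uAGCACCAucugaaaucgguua
miR-29b-3p: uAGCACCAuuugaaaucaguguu
miR-29c-3p: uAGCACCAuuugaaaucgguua

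A match to this seed in the message reads TGGTGCT, or TGGTGCTA when the base facing the first base of the microRNA is an A. Searched on the sense strand of the annotated 3′ UTRs (GENCODE vM21, GRCm38), it was found in 6 of the 33 junction genes (18.2%). The share was 13.4% of all 21685 protein-coding genes with a 3′ UTR. The 33 included a matched gene with too few counts to be tested after DSS. Of the 32 junction genes tested after DSS, 5 held a match, compared to 16.2% of 12810 protein-coding genes tested after DSS. Among tested genes, the junction genes thus held a match no more often than the others. The median longest 3′ UTR was 1246 bases for the junction genes, 1142 bases for the tested genes and 916 bases for all genes. The matches are printed because they are the stretches of the junction messages that could face the deleted microRNAs, and the capitals mark the match.
Cldn1, chr16:26357571-26357599, minus strand: gatttgcatctTGGTGCTAtcacttaatt
Cldn1, chr16:26357699-26357726, minus strand: tggcctcttgtTGGTGCTgttttgtttt
Ocln, chr13:100496891-100496919, minus strand: cttttccaacgTGGTGCTAccactgcagg
Ctnnd1, chr2:84601038-84601065, minus strand: tctgctcttccTGGTGCTctttcttctc
Dsp, chr13:38197988-38198015, plus strand: caaagaaaaccTGGTGCTtgcagtatag
Ildr1, chr16:36725830-36725857, plus strand: ccagtaggtcaTGGTGCTcgggaccaag

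*Cldn1* was the junction gene with 2 matches, of which 1 was of the longer form. The *Ocln* match lay in 1 of the 4 coding transcripts read. *Dsc2*, the remaining gene, held 1 match of the shorter form, in 1 of the 3 coding transcripts read, and its sequence is not printed here. A match is a string of letters and says nothing by itself of binding.

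Total counts per mouse were 17177177 to 18185020 in WT, 14231157 to 16100607 in *miR-29ab1-/-*, 20506610 to 22990024 in WT after DSS and 20076719 to 23153149 in *miR-29ab1-/-* after DSS. *Lncpint*, a long non-coding gene beside the cluster on chromosome 6, read 0.387 to 1.20 CPM (read counts relative to the scaled library size) in WT and 85.9 to 182 CPM in *miR-29ab1-/-* mice, and 0.284 to 0.659 against 33.2 to 68.3 CPM after DSS, so each mouse matched its genotype label. The labels name small intestinal crypts while the study describes colon, and the summed colon epithelium markers (1857 to 7741 CPM) exceeded the summed small intestine markers (306 to 675 CPM) in all 14 mice. Smooth muscle markers summed to 1.04 to 3.94 CPM and endothelial markers to 1.18 to 6.45 CPM. In the same mice 12 epithelial genes with no junction role summed to 11297 to 31961 CPM. By these markers the RNA was mostly epithelial, with little from the muscle of a gut wall. *MiR-29ab1-/-* mouse 2 after DSS stood apart, with 20.2% of its counts from mitochondrial genes against 5.71% to 14.8% in the other 13 mice, and values without it are given where it changed a call.

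**Figure D1:**
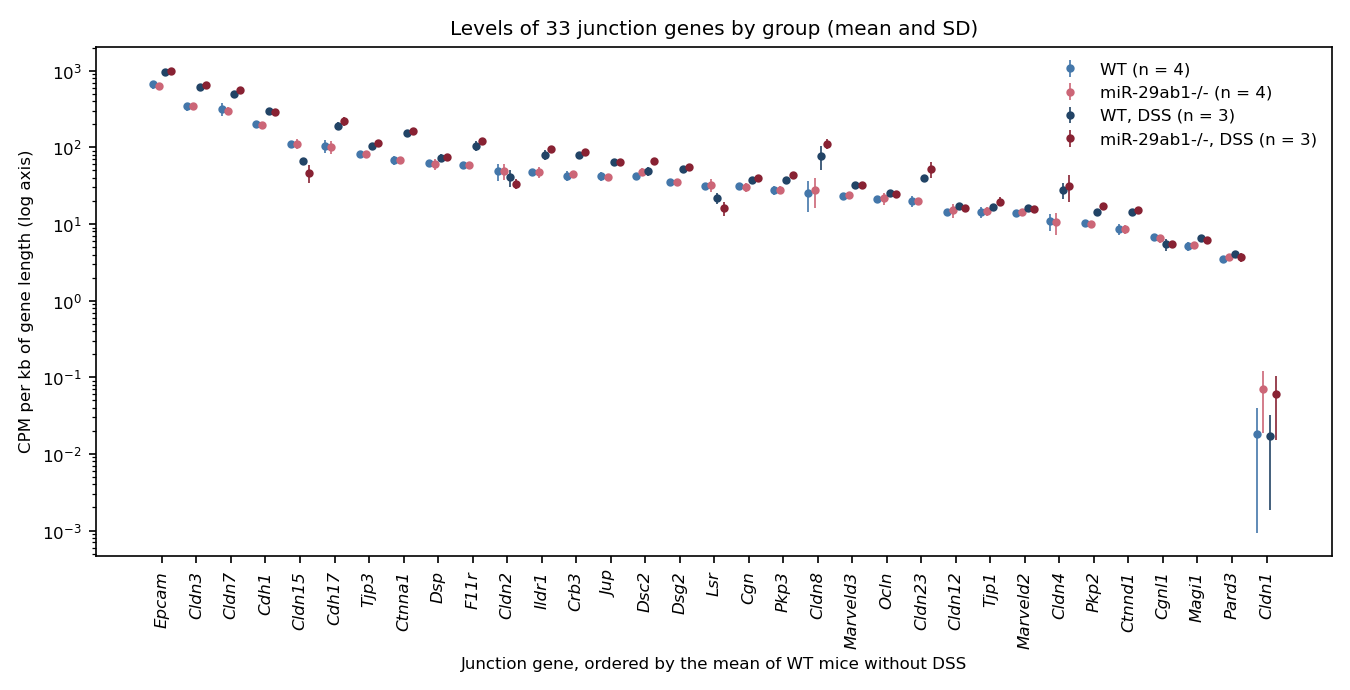
Level of each of the 33 junction genes in each group, as CPM per kilobase of gene length on a log axis, genes ordered by their mean in WT mice. Points are group means and bars SD (n = 4 mice per genotype without DSS, 3 after DSS), with the lower bars of *Cldn1* cut short because SD exceeds or nears the mean. *Epcam* is highest in each group and *Cldn1* lowest. The gene length used for *Ctnna1*, *Cgn*, *Epcam* and *Pard3* differed between the experiments, so their points before and after DSS are not on 1 length. For *Ctnna1* it was 6425 bases without DSS and 3698 bases after DSS.

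Per kilobase of gene length, *Epcam*, an epithelial adhesion molecule, had the highest level in every group, at 663 ± 81.3 CPM per kb in WT mice (mean ± SD, n = 4). *Cldn3* and *Cldn7* followed at 343 ± 41.2 and 320 ± 60.9 CPM per kb, within each other's spread, and *Cdh1* came next at 201 ± 13.1 CPM per kb. *Cldn15* (110 ± 6.70 CPM per kb) and *Cdh17*, the liver-intestine cadherin (105 ± 21.5 CPM per kb), were also not separated. The highest of the tight junction plaque was *Tjp3* at 82.5 ± 4.71 CPM per kb, compared to 14.3 ± 2.28 for *Tjp1*. *Magi1*, a plaque scaffold, and *Pard3*, a polarity scaffold, were lowest but for *Cldn1*, at 5.15 ± 0.709 and 3.54 ± 0.140 CPM per kb.

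*Cldn1* was near the limit of detection. Its raw counts were 3, 0, 0 and 4 in WT, 7, 6, 0 and 9 in *miR-29ab1-/-*, 3, 0 and 2 in WT after DSS, and 8, 6 and 1 in *miR-29ab1-/-* mice after DSS. A limit of 3 counts corresponds to 0.141 to 0.195 CPM in these libraries. The gene did not pass the filter on low counts in any comparison, so 32 of the 33 genes were tested, and the groups overlapped in both experiments.

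The spread among mice of a group was small for most of the 32 genes, with a median coefficient of variation of 11.2% in WT, 11.4% in *miR-29ab1-/-*, 9.34% in WT after DSS and 8.99% in *miR-29ab1-/-* mice after DSS. *Cldn8*, a sealing claudin, varied the most in WT (43.6%), in *miR-29ab1-/-* (42.2%) and in WT mice after DSS (34.2%), and *Cldn4* in *miR-29ab1-/-* mice after DSS (39.2%). *Cldn12* in WT mice without DSS varied by 1.27%.

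**Figure D2:**
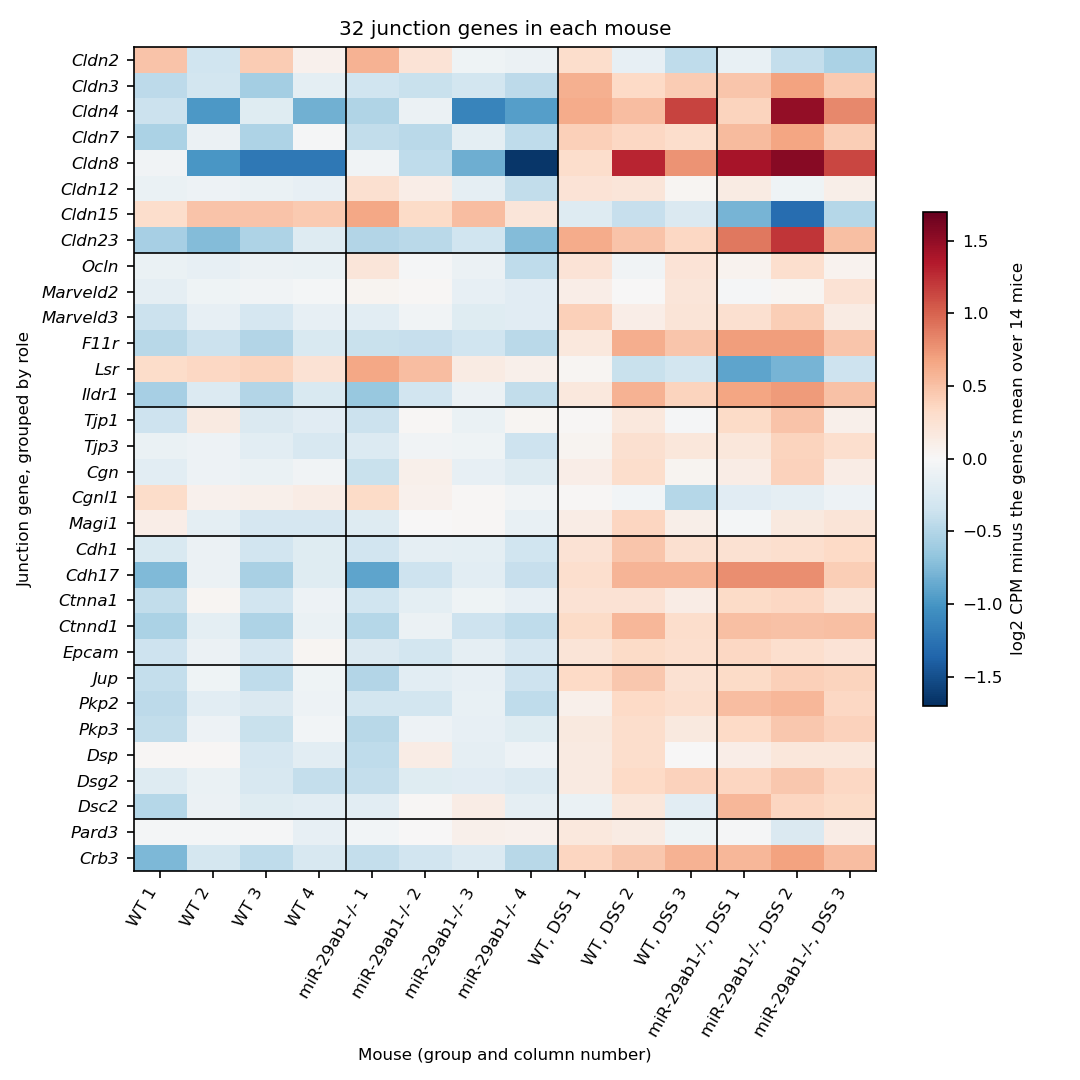
Heat map of 32 junction genes (rows, grouped by role) in 14 mice (columns). Colour is the log2 CPM minus the gene's mean over the 14 mice, red higher and blue lower; on this TMM scale, which epithelial scaling turns round, most rows are red in the 6 mice after DSS, while *Cldn15* is blue there and *Lsr* pale to blue.

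Without DSS, the junction genes of *miR-29ab1-/-* mice could not be separated from those of WT mice. None of the 32 genes passed an unadjusted p under 0.05 in edgeR's quasi-likelihood test, compared to 3.67% of all 15441 genes tested. After Benjamini-Hochberg adjustment 0 of 32 passed, compared to 0.0194% of all genes (3 genes), and DESeq2 also called 0 of 32. Log2 fold changes (*miR-29ab1-/-* minus WT) ran from -0.08 to 0.20, with a median of 0.0015 against -0.0016 over all genes, 16 above and 16 below 0. In none of the 32 did the CPM of the genotypes fail to overlap, compared to 1.95% of all genes.

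*Tjp1*, which encodes the ZO plaque protein most often used to mark the tight junction, read 96.6, 137, 104 and 108 CPM in the 4 WT mice and 95.6, 125, 114 and 126 CPM in the 4 *miR-29ab1-/-* mice. The log2 fold change was 0.05 (SE 0.13), the 95% interval of the difference ran from -0.23 to 0.33, and the mice of each genotype spanned nearly the same range. *Ocln* read 88.6, 86.7, 89.4 and 88.5 CPM in WT and 111, 94.7, 89.5 and 70.8 CPM in *miR-29ab1-/-* mice. WT mice lay close together for occludin and *miR-29ab1-/-* mice on both sides of them (log2 fold change 0.05, SE 0.12). *Cdh1* read 899.7, 997, 854 and 927 CPM in WT and 859, 961, 955 and 849.8 CPM in *miR-29ab1-/-* mice. E-cadherin thus also overlapped (log2 fold change -0.02, SE 0.10).

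The study had measured these genes and *Cldn1* by qPCR, in DSS-treated mice and at a later time than was sequenced. It also measured the ZO1 and Occludin proteins by western blot at that later time, and reported evidence of less barrier function in *miR-29ab1-/-* mice. The RNA read here is another measure at another time. Without DSS, two-sided exact permutation tests on log2(CPM + 1) gave p = 0.8 for *Tjp1*, 0.686 for *Ocln*, 0.714 for *Cdh1* and 0.171 for *Cldn1* (4 against 4 mice, smallest possible p 0.0286). Benjamini-Hochberg adjusted over the 8 such tests of both experiments, these were 0.8 for *Cldn1* and 1 for the others.

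*Cldn7*, a claudin of the lateral membrane that also binds *Epcam*, read 519, 704, 524 and 746 CPM in WT and 565, 552, 677 and 559 CPM in *miR-29ab1-/-* mice. At -0.08 (SE 0.14), *Cldn7* had the lowest log2 fold change of the 32. *Epcam* read 1283, 1528, 1339 and 1672 CPM in WT and 1384, 1320, 1476 and 1345 CPM in *miR-29ab1-/-* mice. Both genes spread more widely among WT mice, whose values enclosed those of the *miR-29ab1-/-* mice. For *Pkp2*, a desmosomal plaque protein, WT mice read 47.7, 57.6, 54.7 and 61.1 CPM and *miR-29ab1-/-* mice 52.2, 52.3, 59.7 and 48.1 CPM. *Epcam*, *Pkp2* and *Cldn7* were the lower genes with the smallest unadjusted p (0.55, 0.57 and 0.58; each adjusted p 0.9995 by edgeR's quasi-likelihood test).

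On the higher side, *Dsc2*, a desmosomal cadherin, read 188, 246, 227 and 232 CPM in WT and 232, 267, 286 and 236 CPM in *miR-29ab1-/-* mice. The log2 fold change of 0.20 (SE 0.11, interval -0.04 to 0.44) was the largest of the 32, and the genotypes still overlapped (edgeR quasi-likelihood, unadjusted p = 0.10, adjusted p = 0.9995). *Pard3* read 53.3, 53.8, 53.9 and 49.5 CPM in WT and 53.2, 54.8, 58.2 and 57.5 CPM in *miR-29ab1-/-* mice (log2 fold change 0.09, SE 0.08). *Marveld3*, a relative of occludin, read 68.4, 80.6, 72.8 and 80.0 CPM in WT and 78.3, 84.7, 76.3 and 77.1 CPM in *miR-29ab1-/-* mice (log2 fold change 0.07, SE 0.08). Precision differed among genes: the interval was widest for *Cldn8*, from -0.76 to 1.05, so that a change within it could not be seen in these mice.

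The 5 tested genes with a seed match (*Ocln*, *Ctnnd1*, *Dsp*, *Ildr1* and *Dsc2*) had a median log2 fold change of 0.02, with 3 above 0, and the 27 without one had a median of -0.0009, with 13 above 0. After DSS the medians were 0.11 (4 of 5 above 0) and 0.07 (19 of 27 above 0). These are descriptions of few genes, with no test.

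**Figure D3:**
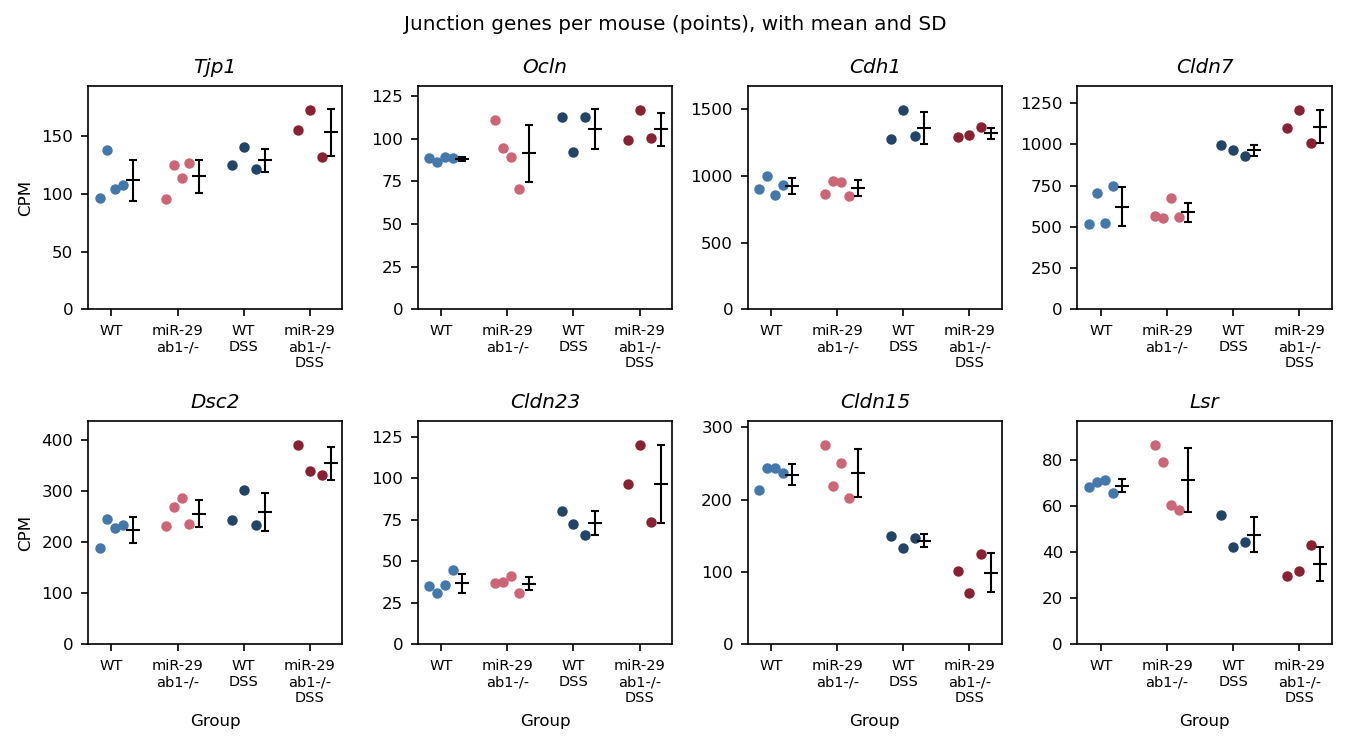
CPM of 8 junction genes in each mouse (points), with the group mean and SD beside them (n = 4 mice per genotype without DSS, 3 after DSS); each vertical axis starts at 0. *Tjp1*, *Ocln* and *Cdh1* overlap between the genotypes in both experiments, *Dsc2* and *Cldn15* do not overlap after DSS, and *Lsr* and *Cldn23* overlap there.

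After DSS, 4 of the 32 junction genes (12.5%) differed between *miR-29ab1-/-* and WT mice at an unadjusted p under 0.05, compared to 7.23% of all 14908 genes tested. *Dsc2* and *Cldn23* were higher in *miR-29ab1-/-* mice (6.25% of the 32, compared to 3.98% of all genes), and *Cldn15* and *Lsr* were lower (6.25%, compared to 3.25%). None of the 32 passed after adjustment in edgeR's quasi-likelihood test, compared to 0.0134% of all genes (2 genes), and DESeq2, which called 59 of all genes, also called 0 of the 32. The median log2 fold change of the 32 was 0.08 against -0.01 over all genes, with 23 above 0, and 18 epithelial genes that belong to no junction had a median of 0.12 in the same comparison. The median of the 32 was 0.0101 without *miR-29ab1-/-* mouse 2, -0.0362 when counts were scaled to the sum of those epithelial genes and 0.0055 when scaled to their median ratio. The CPM of the genotypes did not overlap in 5 of the 32 (15.6%, compared to 11.7% of all genes), which were *Cldn7*, *Dsc2*, *Pkp2* and *Pkp3* on the higher side and *Cldn15* on the lower.

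Among the desmosomal genes, *Dsc2* read 243, 301 and 232 CPM in WT and 390 (rounded from 389.7), 339 and 331 CPM in *miR-29ab1-/-* mice after DSS. All 3 *miR-29ab1-/-* mice thus lay above all 3 WT mice. The log2 fold change was 0.445 (SE 0.13, 95% interval 0.15 to 0.74; edgeR quasi-likelihood, unadjusted p = 0.0074, adjusted p = 0.646), and the unadjusted p stayed under 0.05 with any 1 mouse left out (log2 fold change 0.37 to 0.56). *Pkp2* read 69.2, 82.5 and 79.7 CPM in WT and 93.9, 96.1 and 83.2 CPM in *miR-29ab1-/-* mice. The lowest *miR-29ab1-/-* mouse stood just above the highest WT mouse for this plaque protein (log2 fold change 0.24, SE 0.10; edgeR quasi-likelihood, unadjusted p = 0.051, adjusted p = 0.668). The other desmosomal genes had log2 fold changes of 0.01 (*Jup* and *Dsp*), 0.08 (*Dsg2*) and 0.19 (*Pkp3*), giving a median of 0.13 for the 6.

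Among the claudins, *Cldn23* read 80.4, 72.7 and 66.1 CPM in WT and 96.3, 120.2 and 73.5 CPM in *miR-29ab1-/-* mice. This claudin, whose transport role is less well described than that of its relatives, overlapped between the genotypes, and mouse 2 was the highest. The log2 fold change was 0.40 (SE 0.17; edgeR quasi-likelihood, unadjusted p = 0.047, adjusted p = 0.668), and scaled to summed epithelial genes it was 0.27 with an unadjusted p of 0.12. Without *miR-29ab1-/-* mouse 2 it was 0.21 with an unadjusted p of 0.18 in edgeR's test, and that p was 0.10, 0.13 and 0.089 without WT mouse 2, WT mouse 3 or *miR-29ab1-/-* mouse 1. *Cldn15*, the cation channel former, read 149, 133 and 147 CPM in WT and 101, 71.1 and 125 CPM in *miR-29ab1-/-* mice. All *miR-29ab1-/-* mice were lower, mouse 2 the most. Its log2 fold change was -0.53 (SE 0.18; edgeR quasi-likelihood, unadjusted p = 0.020, adjusted p = 0.646), -0.34 without mouse 2 (unadjusted p = 0.029), and the unadjusted p rose to 0.058 and 0.057 without WT mouse 1 or WT mouse 3.

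*Cldn2*, the other channel-forming claudin on the list, read 174, 128 and 105 CPM in WT and 129, 106 and 96.8 CPM in *miR-29ab1-/-* mice, with a log2 fold change of -0.29 (SE 0.19; edgeR quasi-likelihood, unadjusted p = 0.17). The genotypes overlapped. *Cldn7* read 998, 963 and 927 CPM in WT and 1099, 1208 and 1010 CPM in *miR-29ab1-/-* mice. These did not overlap, by a small margin, and the log2 fold change of 0.20 (SE 0.12) had an unadjusted p of 0.15. *Cldn8*, with the largest log2 fold change of the 32, 0.52 (SE 0.24), had an unadjusted p of 0.069 in edgeR's quasi-likelihood test.

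*Lsr*, which recruits *Marveld2* to the tricellular contacts, read 56.3, 42.3 and 44.3 CPM in WT and 29.6, 31.8 and 43.2 CPM in *miR-29ab1-/-* mice. Mice 1 and 2 of the *miR-29ab1-/-* group were below all WT mice and mouse 3 lay among them. Its log2 fold change was -0.45 (SE 0.17; edgeR quasi-likelihood, unadjusted p = 0.025, adjusted p = 0.655), and the unadjusted p was 0.095 without WT mouse 1, 0.089 without *miR-29ab1-/-* mouse 1 and 0.081 without mouse 2. An antisense gene, *Gm4673*, shares 946 exonic bases with *Lsr* and averaged 90.8 counts after DSS. Whether strand was used in counting was not stated.

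*MiR-29ab1-/-* mice 1 and 2, where *Lsr* and *Cldn15* were lowest, also differed from the other DSS-treated mice in summed goblet cell and in summed macrophage and neutrophil markers. The 3 goblet cell markers (*Muc2*, *Tff3* and *Clca1*, none at 0) summed to 17481, 16296 and 25720 CPM in WT and 9124, 11466 and 22208 CPM in *miR-29ab1-/-* mice after DSS. *Tff3* did not follow the sum: of the DSS-treated mice, *miR-29ab1-/-* mouse 1 was lowest (772 CPM) and mouse 2 highest (1601 CPM). The 6 macrophage and neutrophil markers (none at 0 after DSS) summed to 5.95, 12.04 and 12.9 CPM in WT and 33.8, 49.3 and 10.5 CPM in *miR-29ab1-/-* mice. *S100a8* (10.5 and 15.6 CPM) and *S100a9* (13.5 and 20.3 CPM) were the largest parts in *miR-29ab1-/-* mice 1 and 2. The 5 T cell markers summed to 48.9, 38.9 and 75.3 CPM in WT and 125, 76.3 and 53.8 CPM in *miR-29ab1-/-* mice, so mouse 2 stood next to the highest WT mouse. Mitochondrial genes held 14.8%, 20.2% and 7.43% of the counts in the 3 *miR-29ab1-/-* mice. The part of these in the differences was not tested, and in bulk RNA fewer cells of a type and less RNA per cell cannot be told apart.

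The RNA of the genes measured by qPCR in the study did not separate after DSS, at an earlier time than the study's qPCR and western blots. *Tjp1* read 125, 140 and 122 CPM in WT and 155, 172 and 131 CPM in *miR-29ab1-/-* mice. *MiR-29ab1-/-* mouse 3 lay among the WT mice and the others above them (log2 fold change 0.24, SE 0.12, interval -0.03 to 0.51). The unadjusted p of *Tjp1* was 0.071 by edgeR's quasi-likelihood test (adjusted p = 0.67), and 0.012 to 0.27 with 1 mouse left out (log2 fold change 0.15 to 0.34). It was under 0.05 without *miR-29ab1-/-* mouse 3, where 1288 of all 15283 genes were called higher, and with no filter on low counts. *Ocln* read 112.7, 92.2 and 112.7 CPM in WT and 99.5, 117 and 100.3 CPM in *miR-29ab1-/-* mice, and *Cdh1* read 1271, 1490.4 and 1297 CPM against 1286, 1302 and 1360 CPM. Both overlapped, with log2 fold changes of -0.01 (SE 0.11) and -0.04 (SE 0.13). Two-sided exact permutation tests gave p = 0.2 for *Tjp1*, 1 for *Ocln*, 0.9 for *Cdh1* and 0.3 for *Cldn1* (3 against 3 mice, where p cannot go below 0.1), with adjusted values of 0.8 to 1.

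**Figure D4:**
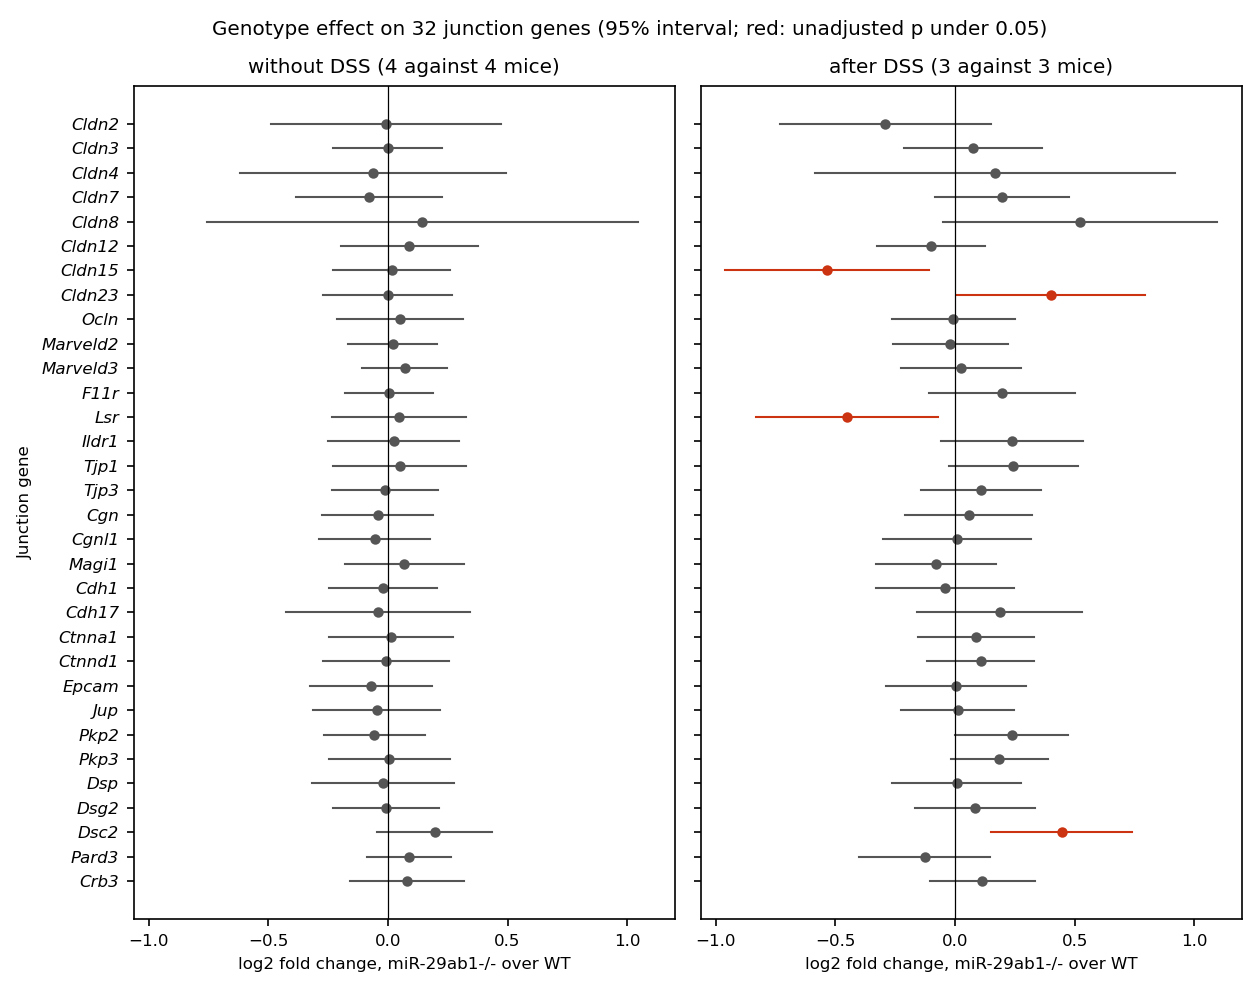
Log2 fold change of *miR-29ab1-/-* against WT for 32 junction genes without DSS and after DSS, with 95% intervals from edgeR's quasi-likelihood fit. Without DSS every interval spans 0; after DSS those of *Dsc2*, *Cldn23*, *Cldn15* and *Lsr* do not, at unadjusted p.

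Compared to mice without DSS, most junction genes held a larger share of the counts after DSS, and the same was true of epithelial genes in general. With standard (TMM) scaling, 20 of 32 (62.5%) rose in WT mice, compared to 20.2% of all 16370 genes, and 2 (6.25%) fell, compared to 18.1%. In *miR-29ab1-/-* mice 22 (68.8%) rose, compared to 23.2% of all genes, and 2 (6.25%) fell, compared to 22.7% (edgeR quasi-likelihood, adjusted p under 0.05). Of the risen genes, 19 were called in both genotypes, *Magi1* in WT mice alone, and *Cgn*, *Dsc2* and *Tjp1* in *miR-29ab1-/-* mice alone; *Cldn15* and *Lsr* fell in both, and *Cgnl1*, *Cldn2*, *Cldn12*, *Dsp*, *Marveld2*, *Ocln* and *Pard3* passed in neither. Without *miR-29ab1-/-* mouse 2 after DSS, 20 rose and 2 fell in *miR-29ab1-/-* mice, the calls of *Cgn* and *Tjp1* being lost, and *Cgn* was then called in WT mice. The call of *Magi1* in WT mice was lost without WT mouse 3 or 4 of the untreated mice or WT mouse 2 after DSS, and that of *Ctnna1* without untreated WT mouse 3. The median log2 fold change of the 32 was 0.44 in WT and 0.50 in *miR-29ab1-/-* mice, against -0.02 and -0.03 over all genes.

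The direction of the rise depended on the scale. The summed level of 12 epithelial genes with no junction role, such as keratins and *Vil1*, was 11297 to 15601 CPM in the 8 mice without DSS and 25647 to 31961 CPM in the 6 after DSS, while the 33 junction genes together went from 7414 to 8582 CPM to 10907 to 12440 CPM. Relative to the sum of those epithelial genes, the junction genes fell from 60.5% ± 5.46 (WT) and 60.5% ± 4.31 (*miR-29ab1-/-*, mean ± SD, n = 4) to 41.7% ± 2.26 and 41.0% ± 2.04 (n = 3), with no overlap between mice without and after DSS. *Krt8*, *Krt19* and *Lgals4* were the largest parts of that sum, and the 12 genes did not rise alike. *Krt8* went from 3572 to 5160 CPM to 8828 to 11225 CPM, but *Cdx2* from 215 to 287 CPM to 230 to 336 CPM. When counts were scaled to the sum of 18 epithelial genes, 0 junction genes were higher and 23 of 32 (71.9%) lower in WT mice, compared to 2.37% and 76.7% of all genes. In *miR-29ab1-/-* mice 0 were higher and 22 (68.8%) lower, compared to 2.94% and 77.7%, so the share that fell was no larger than over all genes. This scaling moved the median of all genes to -1.03 and -1.14, and the junction genes stood 0.48 and 0.53 above that median, close to their 0.46 and 0.53 with TMM scaling. The experiments also differed in the goblet cell markers, which did not move together: *Muc2* ran from 20.6 to 149 CPM without DSS and from 3997 to 8987 CPM after it, *Tff3* from 445 to 728 and from 772 to 1601 CPM, and *Clca1* from 9039 to 32290 and from 2492 to 15214 CPM. The values that follow are on the TMM scale, where a rise is relative to all genes and not per epithelial cell.

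All 5 genes of the adherens junction and epithelial adhesion rose in both genotypes. *Cdh1* rose by a log2 fold change of 0.56 in WT and 0.54 in *miR-29ab1-/-* mice (SE 0.11 for both; adjusted p = 0.0011 and 0.00094), and the 6 DSS-treated mice (1271 to 1490.4 CPM) lay above all 8 mice without DSS (849.8 to 997 CPM). *Ctnnd1*, the catenin that stabilises cadherins at the membrane, read 98.8, 116 and 96.6 CPM in WT after DSS and 112, 112 and 113 CPM in *miR-29ab1-/-* mice after DSS, against 54.3 to 73.7 CPM in the 8 mice without DSS. Its log2 fold changes were 0.72 and 0.84 (adjusted p = 0.00042 and 7.74e-05). Scaled to summed epithelial genes, *Ctnnd1* was at -0.26 in WT mice. *Ctnna1* and *Epcam* also rose, and the gene models behind their counts, as well as those of *Cgn* and *Pard3*, differed in length between the experiments: *Ctnna1* measured 6425 bases in the first and 3698 bases in the second.

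Of the 8 claudins tested, 5 rose and 1 fell in each genotype. *Cldn3* read 845, 705 and 754 CPM in WT after DSS and 773, 899 and 760.2 CPM in *miR-29ab1-/-* mice after DSS, against 375 to 496 CPM in the mice without DSS. The log2 fold changes of this sealing claudin were 0.83 and 0.91 (SE 0.12 for both; adjusted p = 8.78e-05 and 2.53e-05), and -0.15 and -0.21 when scaled to summed epithelial genes. *Cldn23* rose by 0.99 (SE 0.15, adjusted p = 0.000218) in WT and 1.40 (SE 0.16, adjusted p = 8.07e-06) in *miR-29ab1-/-* mice, from 31.0 to 44.5 CPM in the mice without DSS. *Cldn7* rose by 0.63 and 0.91 (adjusted p = 0.0030 and 0.00013).

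*Cldn8* and *Cldn4* had the largest log2 fold changes, on low levels. *Cldn8* read 97.6, 51.5, 43.9 and 44.0 CPM in WT and 126, 249.9 and 174 CPM in WT after DSS, and 97.9, 75.8, 57.3 and 32.4 CPM against 270.3, 297 and 223 CPM in *miR-29ab1-/-* mice. The log2 fold changes were 1.63 (SE 0.38, adjusted p = 0.0057) and 2.00 (SE 0.38, adjusted p = 0.0012), and in neither genotype did treated and untreated mice overlap. *Cldn8* moved from rank 20 of 33 per kilobase to rank 11 in WT and rank 9 in *miR-29ab1-/-* mice. *Cldn4* went from 13.4 to 27.2 CPM in the 8 mice without DSS to 38.0 to 81.7 CPM in the 6 after DSS (log2 fold changes 1.35 and 1.58, adjusted p = 0.0036 and 0.00095). With scaling to the median ratio of the epithelial genes, *Cldn8* (1.06) and *Cldn23* (0.46) were the junction genes still higher in *miR-29ab1-/-* mice (6.25% of 32, compared to 3.71% of all genes), and none was higher in WT mice (compared to 2.82%). With that scaling 19 (59.4%) were lower in WT and 20 (62.5%) in *miR-29ab1-/-* mice, compared to 68.9% and 71.3% of all genes.

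*Cldn15* was the claudin that fell. It read 213, 243, 243 and 237 CPM in WT and 149, 133 and 147 CPM in WT after DSS, and 276, 218, 251 and 202 CPM against 101, 71.1 and 125 CPM in *miR-29ab1-/-* mice. Treated mice lay below all untreated mice in both genotypes. The log2 fold changes were -0.71 (SE 0.16, adjusted p = 0.0026) and -1.26 (SE 0.16, adjusted p = 2.53e-05), and the gene moved from rank 5 per kilobase to rank 13 in WT and rank 17 in *miR-29ab1-/-* mice. *Cldn2*, the other channel former, was at -0.26 (adjusted p = 0.40) and -0.54 (adjusted p = 0.068) by edgeR's quasi-likelihood test.

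Among the other membrane proteins, *F11r*, an adhesion molecule of the immunoglobulin family, read 235, 318 and 289 CPM in WT after DSS and 339.6, 339 and 289 CPM in *miR-29ab1-/-* mice after DSS, against 147 to 173 CPM in the mice without DSS. It rose by 0.83 and 1.03 (SE 0.11 for both; adjusted p = 5.39e-05 and 5.18e-06), and stood at -0.17 and -0.09 when scaled to summed epithelial genes. *Ildr1*, a tricellular protein, rose by 0.77 and 0.99 (adjusted p = 0.00056 and 4.68e-05). *Lsr*, which works at the same contacts, went the other way: it read 68.4, 70.4, 71.6 and 65.6 CPM in WT and 86.7, 79.2, 60.4 and 58.5 CPM in *miR-29ab1-/-* mice without DSS, above all values after DSS. Its log2 fold changes were -0.53 (SE 0.16, adjusted p = 0.015) and -1.03 (SE 0.16, adjusted p = 0.000137), and its call in WT mice was lost when WT mouse 2 or WT mouse 3 after DSS was left out. *Marveld2*, its partner there, was at 0.19 and 0.16 (adjusted p = 0.12 and 0.19).

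Plaque genes moved less. *Tjp3* rose by 0.34 and 0.46 (adjusted p = 0.017 and 0.0019), its call in WT mice being lost without WT mouse 2 or 3 after DSS, and *Tjp1* was at 0.21 in WT (adjusted p = 0.23) and rose by 0.41 in *miR-29ab1-/-* mice (adjusted p = 0.020), a call lost when *miR-29ab1-/-* mouse 1 or mouse 2 after DSS, or mouse 1 without DSS, was left out. *Cgnl1*, a relative of cingulin, was at -0.31 and -0.24 (adjusted p = 0.064 and 0.13). Among the desmosomal genes 4 of 6 rose in WT and 5 of 6 in *miR-29ab1-/-* mice, and *Pkp2* rose by 0.48 (adjusted p = 0.0025) and 0.78 (SE 0.11, adjusted p = 4.17e-05). *Dsp*, the desmoplakin that links the plaque to keratin, was at 0.26 and 0.29 (adjusted p = 0.14 and 0.087). *Crb3*, an apical polarity protein, read 115, 123 and 134 CPM in WT after DSS and 132, 143 and 129 CPM in *miR-29ab1-/-* mice after DSS, against 52.2 to 75.7 CPM without DSS. It rose by 0.90 and 0.94 (SE 0.11 for both; adjusted p = 3.19e-05 and 1.37e-05), and was at -0.09 and -0.17 when scaled to summed epithelial genes.

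Whether the genotype difference itself changed with DSS was tested by the interaction term over 14 mice, in which a shift common to both genotypes of an experiment cancels. At an unadjusted p under 0.05 it was below 0 for 2 of 32 genes (6.25%, compared to 2.3% of all 16370 genes below 0 and 4.03% in either direction), *Cldn15* (-0.55, SE 0.22, unadjusted p = 0.024) and *Lsr* (-0.49, SE 0.22, unadjusted p = 0.041). *Pkp2* followed at 0.30 (SE 0.15, unadjusted p = 0.064). No gene passed after adjustment, 0% of all genes and none of the 32 (adjusted p = 0.987 for all 3), while 660 of all genes passed before it. DESeq2 also called 0 genes after adjustment, and 305 above and 395 below 0 before it. For *Dsc2* the interaction was 0.25 (SE 0.18, unadjusted p = 0.17), so its genotype difference after DSS was not shown to exceed that without DSS. Without *miR-29ab1-/-* mouse 2 after DSS neither *Cldn15* (-0.36, unadjusted p = 0.061) nor *Lsr* (-0.43, unadjusted p = 0.088) passed in edgeR's quasi-likelihood test. With each of the 14 mice left out in turn, *Cldn15* passed in 12 of 14 fits and *Lsr* in 6 of 14. The call of *Cldn15* was also lost without untreated *miR-29ab1-/-* mouse 1, and the unadjusted p of *Lsr* went up to 0.13. Scaled to epithelial genes, *Lsr* had an unadjusted p of 0.076 (sum) and 0.058 (median ratio) in edgeR's test.

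A second list of 60 junction genes, such as nectins, further claudins, gap junction connexins and the rarer desmosomal proteins, was read beside the 33. Of these, 35 had enough counts in each genotype comparison and 38 in the model of all mice. Between genotypes, 1 of 35 passed an unadjusted p under 0.05 without DSS, compared to 3.67% of all genes, and 1 of 35 after DSS, compared to 7.23%. Without DSS *Cldn14* was higher (1.00, SE 0.34, unadjusted p = 0.014). Its counts were 99, 56, 68 and 75 in WT and 219, 113, 114 and 63 in *miR-29ab1-/-* mice, so the genotypes overlapped. After DSS *Evpl*, a cornified envelope protein, was lower (-0.43, SE 0.18, unadjusted p = 0.041). Neither passed after adjustment in edgeR's quasi-likelihood test (adjusted p = 0.9995 and 0.664). After DSS, on the TMM scale, 12 of 38 rose (31.6%, compared to 20.2% of all genes) and 3 fell (7.89%, compared to 18.1%) in WT mice. In *miR-29ab1-/-* mice 15 rose (39.5%, compared to 23.2%) and 6 fell (15.8%, compared to 22.7%). *Perp*, a desmosome component, rose by 0.82 and 0.99 (adjusted p = 0.00019 and 2.51e-05), and *Nectin2*, an adhesion molecule of the adherens junction, by 0.67 and 0.70 (adjusted p = 0.00022 and 9.30e-05). *Arvcf*, a relative of *Ctnnd1*, went from 33, 12, 24 and 34 counts to 143, 147 and 118 counts in WT mice, and *Nectin3* rose by 0.46 in *miR-29ab1-/-* mice.

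Those that fell included *Nectin1* (-0.85 and -1.26, adjusted p = 0.0023 and 8.90e-05) and the desmosomal *Pkp1* (-0.82 and -1.22, adjusted p = 0.0089 and 0.00053), whereas its relatives *Pkp2* and *Pkp3* rose. *Gja1*, a connexin, fell in *miR-29ab1-/-* mice (-1.43, adjusted p = 0.0061). *Dsg3*, a desmosomal cadherin of stratified epithelia, had 2, 10, 9 and 14 counts in WT mice without DSS and 0 in each WT mouse after DSS. In the interaction, 1 of 38 passed an unadjusted p under 0.05, compared to 4.03% of all genes. It was *Pard6b*, a polarity protein, at 1.01 (SE 0.36, unadjusted p = 0.014, adjusted p = 0.987 by edgeR's quasi-likelihood test). After DSS *Pard6b* had 1028, 935 and 679 counts in WT and 1382, 2052 and 924 counts in *miR-29ab1-/-* mice, of which mouse 2 was the highest.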

How the data were processed

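RNA was sequenced from 14 mice in 2 experiments, with directional libraries (NEBNext Ultra Directional kit). The authors deposited raw read counts per gene in 1 table per experiment; the submitters' processing notes name HISAT2 and DESeq2, while the counter, the annotation, the genome build and the use of strand were not given in the sources used here. Of the genes found in GENCODE vM21 (GRCm38), 99.4% and 98.3% had the same coordinates in the deposited tables without and after DSS. The deposited FPKM values and the authors' own fold changes and p-values were not used. Counts were analysed with edgeR 4.0.16 in R 4.3.3: filterByExpr (minimum count 10, minimum total 15), TMM scaling, and robust quasi-likelihood tests with Benjamini-Hochberg adjustment over all genes tested. Genotypes were compared within each experiment, since the tables were made separately; DSS contrasts and the interaction came from 1 model of the 14 mice and genes present in both tables (54378). CPM were scaled by TMM over all mice, and levels were set between genes only per kilobase of the deposited gene length. DESeq2 1.42.0, other scalings and filters, and leaving out each mouse were the alternatives; scaling to the median ratio of 18 epithelial genes was added after seeing the data. No pair of mice agreed within sampling noise, so each library counted as a sample of its own. The labels do not state litters or cages, so p-values measure the spread between these mice.

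The scripts were tested on simulated counts. The junction genes, their roles and the second list were chosen with earlier results of these data known. Genes named in full were *Tjp1*, *Ocln*, *Cdh1*, *Cldn1* and *Cldn7*, and in each genotype comparison the 3 higher and 3 lower with the smallest p; in DSS contrasts the 5 with the smallest p per direction, in the interaction 3, and of the second list up to 3 per direction. Others named were picked after their values were seen. The floor of 3 counts covers counting error only. The columns after DSS are numbered 1 to 3 and are named here by that number.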

Additional observations from a re-analysis of the deposited data

Results flagged for a closer look

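In 3 of the 66 sets of 4 mice without DSS (33 genes in each genotype), 1 mouse lay far from the other 3; chance gives about 1 set in 20. *Cldn7* in *miR-29ab1-/-* mouse 3 was at 677 CPM, compared to 552 to 565 CPM in the other *miR-29ab1-/-* mice. *Cldn8* in WT mouse 1 was at 97.6 CPM, compared to 43.9 to 51.5 CPM in the other WT mice. *Pard3* in WT mouse 4 was at 49.5 CPM, compared to 53.3 to 53.9 CPM in the other WT mice. Groups of 3 mice after DSS were too small for this comparison.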

How the results depend on the processing

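The alternatives gave 194 values that were either counts of junction genes or exact permutation differences, and 156 of them held. A count held when within 1.5 times the reported count, and a permutation difference when it kept direction and side of the threshold. Of 614 single-gene log2 fold changes, 547 kept direction and side of the threshold. For the genotype comparison after DSS, higher calls (2 reported) were 4 with no filter on low counts, compared to 1037 of all 27172 genes. They were 1 with either epithelial scaling, compared to 339 (sum) and 390 (median ratio) of all 14908 genes. With 1 mouse left out, 1 to 4 junction genes were higher, compared to 268 to 1288 over all genes. From 0 to 2 were lower, compared to 215 to 1242 over all genes. Scaled to the sum of the epithelial genes, DSS calls were 0 higher and 23 lower in WT (20 and 2 reported; 76.7% of all genes lower) and 0 and 22 in *miR-29ab1-/-* mice (22 and 2 reported; 77.7%); scaled to their median ratio they were 0 and 19 (68.9%), and 2 and 20 (71.3%), by construction relative to genes that rose. Of the 20 and 22 risen genes, 18 and 18 lay below 0 with the sum, and 14 and 15 with the median ratio. Among the genes named by rule, those below 0 with the sum were, in WT, *Crb3* (-0.087), *F11r* (-0.17), *Cldn3* (-0.15), *Cldn23* (-0.0002) and *Ctnnd1* (-0.26), and in *miR-29ab1-/-* mice *F11r* (-0.0902), *Crb3* (-0.17), *Cldn3* (-0.21) and *Pkp2* (-0.33). With the median ratio they were *F11r* (-0.01) and *Ctnnd1* (-0.0931) in WT, and *Cldn3* (-0.0263) and *Pkp2* (-0.15) in *miR-29ab1-/-* mice. With 1 mouse left out, 1 to 3 junction genes were lower after DSS in WT, compared to 2117 to 3003 over all genes. In the interaction, 1 junction gene was higher when 10 counts were required in every mouse (0 reported), compared to 253 of all 12818 genes. Under both epithelial scalings 1 was lower (2 reported), compared to 264 (sum) and 296 (median ratio) of all 16370 genes. With 1 mouse left out, 0 to 2 were higher and 0 to 3 lower, compared to 162 to 555 and 248 to 938 over all genes. The difference of *Ocln* after DSS in the exact permutation test was 0.0061 (p = 1) with RLE size factors; the cause of such shifts was not tested.

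Leaving out 1 mouse moved differences near 0 across it: without DSS, *Tjp1* from -0.0043 to 0.16, *Ocln* from -0.0552 to 0.15, *Cdh1* from -0.0445 to 0.0154 and *Cldn7* from -0.14 to 0.0073, and after DSS, *Ocln* from -0.10 to 0.0407 and *Cdh1* from -0.0893 to 0.028. Same-numbered mice without DSS did not deviate together (correlations -0.22 to 0.15, with 0 mice matching their own number best). With the replicate number as a block, 0 junction genes were higher and 0 lower at an unadjusted p under 0.05 in edgeR's test. Of all 15441 genes, 337 were higher and 206 lower. No paired analysis was possible because the columns after DSS carry numbers that the labels do not tie to mice. With 3 mice per genotype after DSS, the 95% interval of *Tjp1* ran from -0.03 to 0.51, so neither no difference nor one of that size was resolved.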
